A study of Mus musculus with 12 samples.

Results

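The enzymes examined here convert acetyl-CoA units into cholesterol in the liver. They are the products of 9 genes, namely Hmgcs1, Idi1, Fdps, Fdft1, Sqle, Lss, Cyp51, Sc5d and Dhcr7. Every non-control probe whose RefSeq record belongs to one of these genes was taken, which gave 10 probes of the 39429 on the array and 9 of its 20283 named genes. The rule that picks the probes uses no measured value. Each gene is represented by its brightest probe. Those 9 probes were above background in both dyes on all 12 arrays, and the second Fdft1 probe was above background on 0 arrays and was not analyzed further.

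The arrays hold liver RNA of male db/db mice, which lack a functional leptin receptor and become obese and diabetic, aged 8 weeks by the labels. The treated mice received MgH2, a solid that releases H2 in the stomach, by gavage once a day for 1, 3 or 7 days (0.9 mg/kg in the labels), or drank H2-water (0.8 mM H2) for 14 days. The controls of the MgH2 mice were given Mg(OH)2 and those of the H2-water mice drank the degassed water, and both were db/db mice as well. Each of the 3 arrays of a group set 1 pool of liver RNA from 3 treated mice, in Cy5, against 1 pool from 3 control mice, in Cy3. No array had the dyes swapped, so each ratio also holds the dye bias of its probe. A log2 ratio below 0 means less signal in the treated pool.

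Cholesterol synthesis runs in stages. Hmgcs1 makes the precursor of mevalonate, Idi1 and Fdps build farnesyl diphosphate from it, Fdft1 and Sqle make and oxidize squalene, and Lss closes the rings to lanosterol. Cyp51, Sc5d and Dhcr7 then turn lanosterol into cholesterol. The genes share a regulator, SREBP-2, which is held in the endoplasmic reticulum while sterols are plentiful and is otherwise cut free to enter the nucleus and bind sterol regulatory elements near these genes.

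Promoter sequences from RefSeq (GRCm38.p6), 250 bases before to 50 bases after the start of the gene, were at hand for 6 of the 9 genes, Hmgcs1, Idi1, Lss, Cyp51, Sc5d and Dhcr7. Fdps, Fdft1 and Sqle were not matched. Both strands were searched for a sterol regulatory element spelled TCACNCCAC, for CCAAT and for GGGCGG, and no match of one overlapped a match of another in the sequences shown. The 6 genes have 8 promoters in that table, 3 of them for Dhcr7. The first motif was in 1 of the 8, that of Hmgcs1, and in 1.24% of the 32851 promoters of the same length. CCAAT was in 6 of the 8 and GGGCGG in 7, against 37.4% and 35.7% of all promoters. Shown are Hmgcs1 (chr13:119690101-119690400, plus strand), which holds all 3 motifs, Sc5d (chr9:42264251-42264550, minus strand), the gene called most often in these data, and Cyp51 (chr5:4104648-4104947, minus strand), the gene with the highest ratio after H2-water. Capitals mark the motifs on either strand, and a match is a description of the letters only.
Hmgcs1: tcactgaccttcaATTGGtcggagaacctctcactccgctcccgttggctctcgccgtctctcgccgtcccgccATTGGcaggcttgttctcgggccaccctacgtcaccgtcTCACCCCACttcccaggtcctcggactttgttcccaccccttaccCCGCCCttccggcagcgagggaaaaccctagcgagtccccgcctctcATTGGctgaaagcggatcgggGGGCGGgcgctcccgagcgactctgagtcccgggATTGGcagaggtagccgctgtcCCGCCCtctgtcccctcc
Sc5d: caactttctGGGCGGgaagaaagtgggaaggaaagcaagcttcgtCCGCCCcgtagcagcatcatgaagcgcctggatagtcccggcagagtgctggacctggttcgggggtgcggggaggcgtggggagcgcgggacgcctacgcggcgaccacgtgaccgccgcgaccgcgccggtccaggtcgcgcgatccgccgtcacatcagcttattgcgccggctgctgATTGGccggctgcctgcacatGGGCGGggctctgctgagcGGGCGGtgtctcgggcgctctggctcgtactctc
Cyp51: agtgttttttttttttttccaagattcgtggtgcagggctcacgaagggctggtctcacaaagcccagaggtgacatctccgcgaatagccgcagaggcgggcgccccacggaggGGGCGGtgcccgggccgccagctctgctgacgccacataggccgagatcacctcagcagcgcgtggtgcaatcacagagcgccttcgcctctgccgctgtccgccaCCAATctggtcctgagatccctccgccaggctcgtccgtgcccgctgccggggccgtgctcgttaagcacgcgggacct

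Between 51.9% and 56.5% of the spots of an array were above background in both dyes, 0 spots were saturated, and the number of arrays limits the precision. The 9 genes were above background on all 12 arrays, with processed intensities from 78.6 for Cyp51 to 17500 for Sc5d. Cyp51 (78.6 to 244) and Lss (248 to 400) had the lowest intensities. Under the alternatives listed below, other than leaving out an array, the 1-day log2 value ran from -0.33 to -0.139 for Cyp51. For Lss it ran from -0.261 to -0.115. Levels of different genes were not compared, since probes differ in brightness. Group means were tested with limma in a fit of all 12 arrays, two-sided, and a gene was called at an adjusted p under 0.05 (Benjamini-Hochberg, over every probe above background). Errors are standard errors of that fit, with n = 3 arrays. P values measure the spread between arrays, each with a treated and a control pool, estimated over all groups at once. The fit takes the 12 arrays as independent. Deviations from the group means correlated at 0.368 to 0.655 between arrays of the same number at 1, 3 and 7 days. The p values of the main fit do not allow for that.

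The control pools of 1, 3 and 7 days were alike within a replicate number. The Cy3 intensity of Fdps was 9598, 9645 and 9627 in control pool 1 at 1, 3 and 7 days. It was 10380, 9994 and 9472 in control pool 2, and 13510, 14500 and 15040 in control pool 3. Control pool 3 was the highest on each day, and pools 1 and 2 changed places at 7 days in these unscaled intensities. With each array scaled to its total, pool 2 was above pool 1 on each day. The log2 values were 10.13 and 10.08, 10.08 and 9.99, and 10.02 and 9.92. Over the 9 genes, control pools of the same number on different days differed by a median of 0.0261 to 0.0971 on the log2 scale (9 pairs), and those of different numbers by 0.136 to 0.319 (18 pairs). Treated pools showed no such order, with 0.133 to 0.423 for the same number and 0.0673 to 0.424 for different numbers. Over all 18991 probes the standard deviation of the difference between controls was 0.144 to 0.215 within a number and 0.227 to 0.322 between numbers. The labels give each day its own control, and whether 1 control RNA served the 3 days was not stated in the sources used here. The 3 MgH2 comparisons are therefore treated as sharing their controls, and a value that recurs at 1, 3 and 7 days is not counted as repeated evidence.

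Control pool 3 was the highest control pool of its day in 8, 8 and 9 of the 9 genes at 1, 3 and 7 days, and above the mean of the other 2 by a median of 0.20, 0.22 and 0.20. Control pool 2 was the lowest in 6 of 9 genes on each day, and its median difference from the mean of the other 2 was -0.18, -0.15 and -0.21. For the control pools of H2-water the same median was between -0.04 and 0.07. Among the treated pools, replicate 2 of 3 days stood apart, the highest treated pool of that day in 9 of 9 genes, and above the mean of the other 2 by a median of 0.48. Replicate 1 of 7 days was the highest of its group in 8 of 9 genes, above the mean of the other 2 by a median of 0.25. Results at 3 days are given with and without replicate 2.

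**Figure D1:**
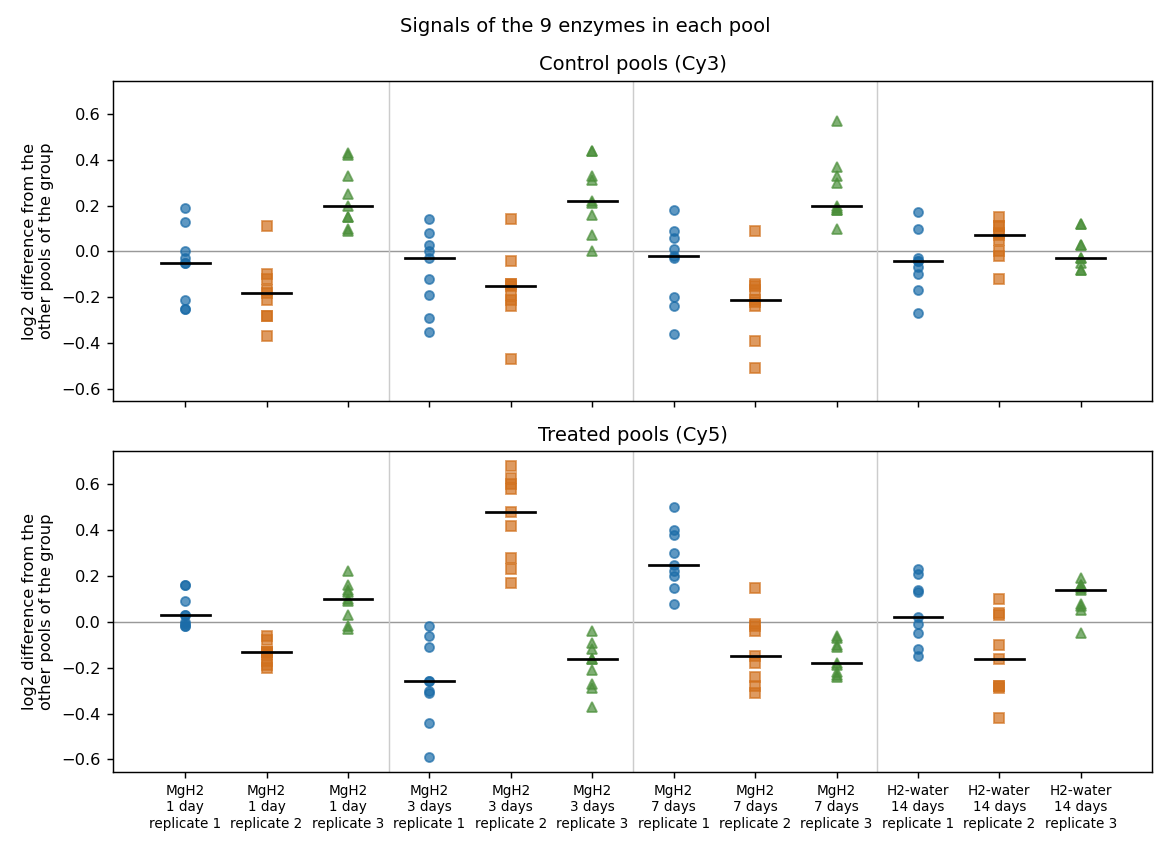
Log2 signal of each of the 9 enzymes in each pool, minus the mean of the other pools of the same group. Control pools (Cy3) are at the top and treated pools (Cy5) at the bottom, with each array scaled to its total. Points are genes and bars are medians. The medians of the control pools are lowest for replicate 2 and highest for replicate 3 at 1, 3 and 7 days, and the treated pool of replicate 2 at 3 days is the highest, with a median of 0.48.

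After 1 day of MgH2 the ratios were low throughout. Of the 27 single values, 26 were below 0, and 8 of 9 genes were below 0 on all 3 arrays, against 22.4% of the 19670 probes tested. The genes moved together over the 12 arrays (Pearson r from 0.46 to 0.98 between them), so these are not separate results. The median over the 9 genes was -0.35, and that of all probes tested was -0.003. Only Dhcr7 passed the test, 1 of 9, where 9.38% of all probes were called in either direction and 4.23% were called lower. After 3 days the median was -0.30 (all probes 0.002), and after 7 days -0.15 (all probes 0.006). Fdps and Sc5d were called lower at both, 2 of 9 at 3 days, where 23.4% of all probes were called (11.1% lower), and 2 of 9 at 7 days, where 29.5% were called (14.2% lower). After 14 days of H2-water all 9 means were above 0, with a median of 0.25 (all probes -0.005), and limma called 0 of 9, where 8.83% of all probes were called (4.92% higher). At an unadjusted p under 0.05 it gave 3 of 9, Lss, Cyp51 and Sc5d, all higher, against 12.0% of all probes. The methods' t-test gave 4 of 9 higher at that level, against 10.3% of all probes, and 0 after adjustment.

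**Figure D2:**
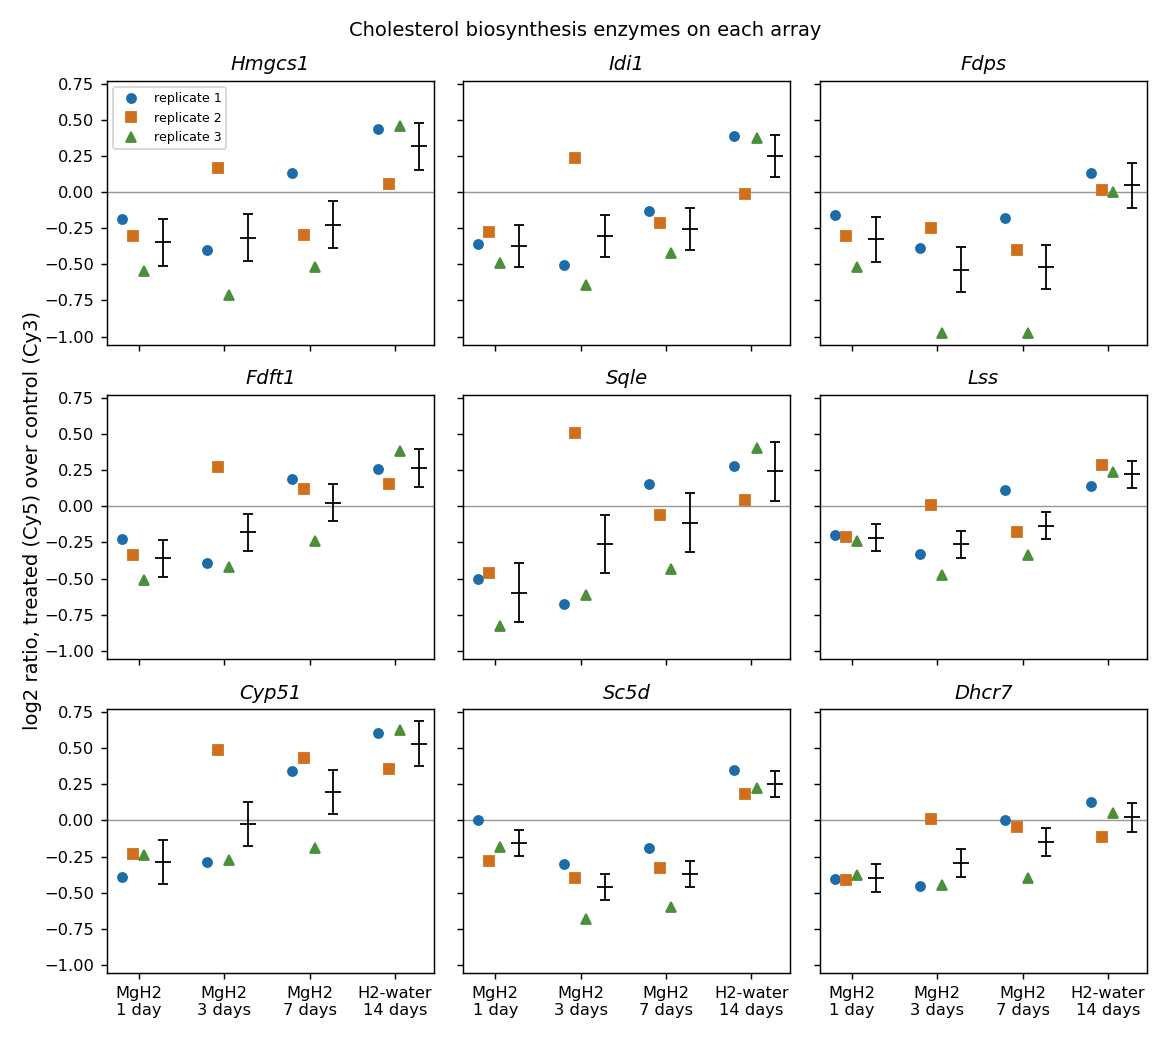
Log2 ratio of treated (Cy5) over control (Cy3) for each of the 9 enzymes on each of the 12 arrays, by group and replicate number. Horizontal bars with whiskers are the mean and standard error of the limma fit. The 1-day points lie below 0 but for Sc5d on replicate 1, the point of replicate 2 at 3 days stands above the others in 8 of the 9 panels (not for Sc5d), and the 14-day points are mostly above 0.

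Hmgcs1 encodes the cytosolic synthase that supplies HMG-CoA to the pathway. Its log2 ratios on replicates 1, 2 and 3 were -0.19, -0.30 and -0.55 at 1 day and -0.40, 0.16 and -0.72 at 3 days. They were 0.13, -0.30 and -0.52 at 7 days, and 0.43, 0.06 and 0.46 after H2-water. The 14-day arrays lay above all 1-day arrays and overlapped those of 3 and 7 days. The means were -0.35 (SE 0.163), -0.32, -0.23 and 0.32, and none passed the test (limma adjusted p from 0.19 to 0.32).

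Idi1 encodes the isomerase that makes dimethylallyl diphosphate. Its ratios were -0.36, -0.28 and -0.49 at 1 day and -0.50, 0.23 and -0.64 at 3 days. At 7 days they were -0.13, -0.21 and -0.42, and after H2-water 0.39, -0.01 and 0.38. All 1-day and 7-day arrays were below 0, and the 14-day arrays lay above all of them. The means were -0.38 (SE 0.146), -0.31, -0.25 and 0.25, with limma adjusted p from 0.14 to 0.34.

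Fdps encodes farnesyl diphosphate synthase, at the branch to squalene and to prenyl groups. Its ratios were -0.16, -0.30 and -0.52 at 1 day, -0.39, -0.25 and -0.98 at 3 days, and -0.18, -0.40 and -0.98 at 7 days. After H2-water they were 0.13, 0.02 and -0.002, close to 0 and above every MgH2 array. The 9 MgH2 arrays were all below 0, and replicate 3, set against the high control pool, was the lowest on each day. At 3 days Fdps fell to a ratio of 0.689 (log2 -0.54, SE 0.155, limma adjusted p = 0.032). At 7 days the ratio was 0.699 (log2 -0.52, SE 0.155, adjusted p = 0.031). Without replicate 3 the value was -0.32 at 3 days (adjusted p = 0.21) and -0.29 at 7 days (adjusted p = 0.23), so both calls rested on that array. The 3-day call was also lost without replicate 1 (-0.61, adjusted p = 0.066) and the 7-day call without replicate 2 (-0.58, adjusted p = 0.070). At 1 day the mean was -0.33 (adjusted p = 0.22).

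Fdft1 encodes squalene synthase, the first enzyme committed to sterols. Its ratios were -0.23, -0.34 and -0.51 at 1 day and -0.39, 0.27 and -0.42 at 3 days. At 7 days they were 0.19, 0.12 and -0.24, and after H2-water 0.26, 0.15 and 0.38. The 1-day arrays lay below all 14-day arrays, while those of 3 and 7 days spanned 0. The means were -0.36 (SE 0.128), -0.18, 0.02 and 0.26, with limma adjusted p from 0.11 to 0.91.

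Sqle encodes squalene epoxidase, a rate-limiting oxygenase of the pathway. It had the lowest mean of the 9 genes at 1 day, with ratios of -0.50, -0.47 and -0.83, and the widest spread at 3 days, with -0.68, 0.51 and -0.61. At 7 days the ratios were 0.16, -0.06 and -0.44, and after H2-water 0.28, 0.04 and 0.40. The 1-day arrays lay below every array of 7 and 14 days. The means were -0.60 (SE 0.202, limma adjusted p = 0.095), -0.26, -0.11 and 0.24, and none was called.

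Lss encodes lanosterol synthase. Its ratios were -0.20, -0.21 and -0.24 at 1 day, a spread of 0.0223 (SD, n = 3), and -0.33, 0.01 and -0.47 at 3 days. They were 0.11, -0.18 and -0.34 at 7 days, and 0.14, 0.29 and 0.23 after H2-water. The 14-day arrays lay above every MgH2 array. The means were -0.22 (SE 0.0930), -0.26, -0.14 and 0.22, and the limma adjusted p was lowest at 3 days, 0.066.

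Cyp51 encodes the demethylase of lanosterol. Its ratios were -0.39, -0.23 and -0.24 at 1 day and -0.29, 0.49 and -0.28 at 3 days. At 7 days they were 0.34, 0.43 and -0.19, and after H2-water 0.61, 0.36 and 0.63. The 1-day arrays lay below all arrays of 7 and 14 days. After H2-water the mean of 0.53 (SE 0.154), a ratio of 1.44, was the highest of the 9 genes and was not called (limma adjusted p = 0.063). It was called with slide as a random block (adjusted p = 0.035) and after normexp and loess (0.35, adjusted p = 0.028). In the slide fit the correlation within slides was -0.0801, and a value below 0 makes the error of a group held on 1 slide smaller. Cyp51 was also called without replicate 2 of 3 days (adjusted p = 0.022) or replicate 3 of 7 days (adjusted p = 0.048).

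Sc5d encodes the desaturase that makes 7-dehydrocholesterol. Its ratios were 0.005, -0.28 and -0.18 at 1 day, -0.30, -0.40 and -0.68 at 3 days, and -0.19, -0.33 and -0.60 at 7 days. After H2-water they were 0.35, 0.18 and 0.23. All 3-day and 7-day arrays were below 0, the 3-day arrays lay below all 1-day arrays, and the 14-day arrays were above every MgH2 array. At 3 days Sc5d fell to a ratio of 0.727 (log2 -0.46, SE 0.0896, limma adjusted p = 0.0064). At 7 days the ratio was 0.773 (log2 -0.37, SE 0.0896, adjusted p = 0.012). Leaving out any 1 array kept the 3-day call (adjusted p from 0.0051 to 0.046), and the 7-day call was lost without replicate 3 of 7 days (-0.26, adjusted p = 0.099). After H2-water the mean was 0.25 (adjusted p = 0.12), and with the replicate block, whose numbers were not taken to pair H2-water with MgH2, it was called (adjusted p = 0.029). At 1 day the mean was -0.15 (adjusted p = 0.31).

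Dhcr7 encodes the reductase of the last step. Its ratios were -0.41, -0.41 and -0.38 at 1 day, a spread of 0.0203 (SD, n = 3). They were -0.45, 0.01 and -0.44 at 3 days, 0.003, -0.04 and -0.40 at 7 days, and 0.13, -0.11 and 0.05 after H2-water. The 1-day arrays were close together and lay below all 14-day arrays. Dhcr7 was lower at 1 day, with a ratio of 0.758 (log2 -0.40, SE 0.0974, limma adjusted p = 0.032). The call was lost without any 1 of the 3 arrays of 1 day (adjusted p from 0.10 to 0.14), without replicate 3 of 14 days (adjusted p = 0.051), with arrays centered on the median of all spots (adjusted p = 0.058) and with dim probes kept (adjusted p = 0.089). At 3 days the mean was -0.30 (adjusted p = 0.052), at 7 days -0.15 and after H2-water 0.02.

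The values at 3 days depended on replicate 2. On that array 7 of the 9 genes were above 0, with a median of 0.16, and only Fdps and Sc5d were below. On the other 2 arrays of 3 days all 9 genes were below 0, with medians of -0.39 and -0.61. Without that array 7 of 9 genes were called lower at 3 days, against 4.32% of all probes, which are Idi1 (-0.57, limma adjusted p = 0.014), Fdps (-0.68, 0.048), Fdft1 (-0.41, 0.041), Sqle (-0.64, 0.024), Lss (-0.40, 0.027), Sc5d (-0.49, 0.031) and Dhcr7 (-0.45, 0.019). Hmgcs1 was at -0.56 (adjusted p = 0.057) and Cyp51 at -0.28 (adjusted p = 0.19). That array was singled out by the values of these same 9 genes, so leaving it out lowers their 3-day means by construction. The share of all probes does not allow for that choice, and these counts are not separate evidence. The spread is estimated over all groups at once, and calls elsewhere moved as well. Without that array 4 of 9 genes were called lower at 1 day (Idi1, Fdft1, Sqle and Dhcr7), against 3.63% of all probes. After H2-water 1 of 9 was called higher (Cyp51), against 4.29%.

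The next question was whether the enzymes differed between times and between the forms of H2. Between 1 and 3 days of MgH2 limma called 0 of 9 genes (0.0208% of all probes), with 1 of 9 at an unadjusted p under 0.05 (7.64% of all probes in its direction). Sc5d was that gene, with 3 days minus 1 day at -0.31 (adjusted p = 0.28), and the only one whose groups did not overlap, against 8.86% of all probes in that direction. Between 1 and 7 days it called 0 of 9 (6.95% of all probes), with 1 of 9, Cyp51, at an unadjusted p under 0.05 (13.1% of all probes in its direction). Sqle (0.48, 95% interval -0.15 to 1.12) and Cyp51 (0.48, 0.00 to 0.96) were higher on every 7-day array than on every 1-day array, against 15.2% of all probes. Between 3 and 7 days it called 0 of 9 (0.0% of all probes), with 0 of 9 at an unadjusted p under 0.05 (4.73% of all probes), and the 95% intervals ran from -0.49 to 0.78 at the widest, for Sqle. Neither the replicate block nor slide as a block, fixed or random, called any of the 9 genes in these 3 differences.

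Slides held more than 1 group in places. On the slide with all 1-day arrays and 1 array of 3 days, that array minus the mean of 1 day ran from -0.15 for Sc5d to 0.00 for Cyp51. That array is replicate 1, while the 1-day mean also holds replicates 2 and 3, with the low and the high control pool. Against replicate 1 of 1 day it was lower for every gene but Cyp51 (-0.29 against -0.39). Sc5d was at -0.30 against 0.005 and Fdps at -0.39 against -0.16, in 1 pair of arrays. On the slide with 2 arrays each of 3 and 7 days, the 7-day mean was higher for 9 of 9 genes, by 0.03 for Idi1 to 0.32 for Fdps. That slide holds replicates 2 and 3 of 3 days and replicates 1 and 2 of 7 days, so the high control pool 3 is on the side of 3 days only. For replicate 2, which both times have there, 7 days was lower in 8 of 9 genes, from -0.57 for Sqle to -0.05 for Dhcr7, and Sc5d was at 0.07. That is 1 pair of arrays, and its 3-day array is the one whose treated pool stood apart as the highest. The 14-day arrays were on a slide of their own and were read with another version of Feature Extraction. Slide, software, form of H2, control and duration therefore cannot be told apart in any difference that involves H2-water.

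With that limit, H2-water lay above MgH2 in all 9 genes at each time. Against 1 day the differences of log2 ratios ran from 0.37 for Fdps to 0.84 for Sqle, with a median of 0.62 (all probes 0.000). The groups did not overlap for 9 of 9 genes, H2-water higher, against 9.48% of all probes. Limma called 0 of 9 (0.0747% of all probes), and 8 of 9 had an unadjusted p under 0.05, against 5.95% of all probes in that direction. With the replicate block and slide as a random block, Sc5d was called (0.41, limma adjusted p = 0.031), where 589 of 18744 probes were called. In that fit the correlation within slides was -0.0765, which makes the error of a group held on 1 slide smaller. The block also pairs H2-water with MgH2 by a number that was not taken to pair them. The 9 genes are not independent of each other, and the adjusted p ran from 0.18 to 0.53.

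Against 3 days the differences ran from 0.32 for Dhcr7 to 0.71 for Sc5d, with a median of 0.56, and 1 of 9 genes was called (2.44% of all probes, 1.23% higher). That gene was Sc5d (0.71, SE 0.126, 95% interval 0.43 to 0.99, limma adjusted p = 0.028). The groups did not overlap for 3 of 9 genes, Fdps, Lss and Sc5d, against 12.8% of all probes in that direction. Against 7 days they ran from 0.17 for Dhcr7 to 0.625 for Sc5d, with a median of 0.36, and Sc5d was again the 1 gene called (6.61% of all probes, 3.46% higher). Its 95% interval was 0.34 to 0.91 (SE 0.126, limma adjusted p = 0.024). Idi1, Fdps, Lss and Sc5d did not overlap between the groups, 4 of 9 against 15.2% of all probes. With the replicate block Fdps was called too, 2 of 9 in each difference (0.59, adjusted p = 0.042 against 3 days, and 0.57, adjusted p = 0.034 against 7 days), where 3.64% and 7.11% of all probes were called higher. The block pairs H2-water with MgH2 by a number that was not taken to pair them. Without any 1 of the 14-day arrays both calls of Sc5d were lost, with adjusted p from 0.078 to 0.087 against 3 days and from 0.067 to 0.070 against 7 days. The call against 3 days was also lost without replicate 2 or 3 of 3 days, and that against 7 days without replicate 3 of 7 days.

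**Figure D3:**
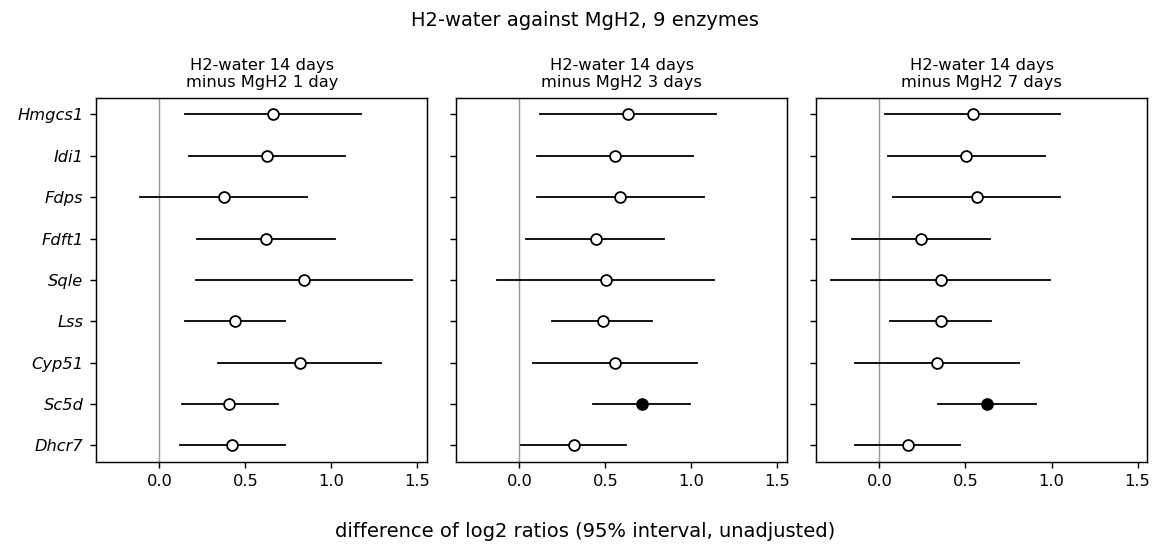
Difference of the mean log2 ratios, H2-water 14 days minus MgH2 at 1, 3 or 7 days, for each enzyme. Points are the differences, lines the unadjusted 95% intervals of the limma fit, and filled points passed the adjusted test. All 27 points are above 0 and only Sc5d is filled, at 0.71 against 3 days and 0.625 against 7 days.

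The 9 genes moved together across arrays. Over the 12 arrays, whose control pools were alike within a number at 1, 3 and 7 days, Pearson r between genes ran from 0.46 for Sqle with Sc5d to 0.98 for Fdft1 with Sqle and for Cyp51 with Dhcr7. Fdps and Sc5d, the 2 genes called at 3 and 7 days, had r = 0.90 with each other. With the mean of the other 8 genes, r was 0.69 for Sc5d, 0.80 for Fdps and 0.90 to 0.97 for the rest. After the group means were taken out, it was 0.59 for Sc5d, 0.80 for Fdps and 0.84 to 0.96 for the rest. Of 11555 other genes above background on all arrays, the 10 with the highest r with the mean of the 9 over the 12 arrays were Nsdhl (0.958), Tmem98 (0.954), Immt (0.943), Msmo1 (0.934), Rdh11 (0.925), Gstm6 (0.923), Tm7sf2 (0.917), Mvk (0.916), Tmem97 (0.909) and Ugt1a6b (0.909). Of these, Nsdhl, Msmo1, Tm7sf2 and Mvk are other enzymes of cholesterol synthesis, and Pmvk followed at rank 13. The others were far lower, with Mvd at rank 255 (r = 0.69), Hsd17b7 at 382 (0.65), Acat2 at 1776 (0.40) and Lbr at 6192 (-0.05).

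The other enzymes of the pathway were counted from a list of 10 (Acat2, Mvk, Pmvk, Mvd, Tm7sf2, Lbr, Msmo1, Nsdhl, Hsd17b7 and Ebp). At 1 day 10 of 10 had a mean below 0, with a median of -0.22, and 2 were called lower, against 4.23% of all probes. These were Nsdhl, a sterol dehydrogenase that removes carbon at C-4 (log2 -0.32, limma adjusted p = 0.046), and Hsd17b7, the ketoreductase of the same step (-0.32, adjusted p = 0.042). At 3 days the median was -0.076 and 2 were called lower, against 11.1% of all probes. They were Mvd, the mevalonate diphosphate decarboxylase, at -0.96 (limma adjusted p = 0.0043) and Nsdhl at -0.34 (adjusted p = 0.020). At 7 days the median was -0.008 and Mvd alone was called, at -0.93 (limma adjusted p = 0.0033), where 14.2% of all probes were called lower. After H2-water 8 of the 9 tested had a mean above 0, with a median of 0.25. Tm7sf2, a sterol reductase, was called higher (0.29, limma adjusted p = 0.025), where 4.92% of all probes were called higher. With the replicate block Pmvk was called higher as well after H2-water, 2 of 9 in all, where 1453 of 20429 probes were called higher. With each array centered on the median of all its spots, 0 of 10 were called at 1 day and 1 of 10 at 3 days (Mvd).

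Genes that sense sterols or respond to SREBP-2 were counted from a list of 8 (Srebf2, Srebf1, Scap, Insig1, Insig2, Mbtps1, Mbtps2 and Stard4). Limma called 0 of 8 at 1 day (3 at an unadjusted p under 0.05) and 0 of 7 after H2-water (1 unadjusted), and the methods' t-test called 0 in both after adjustment. At 3 days 2 were called higher and 2 lower, and at 7 days 2 higher and 3 lower, with medians of -0.17 and -0.09. Of all probes, 23.4% were called at 3 days (11.1% lower) and 29.5% at 7 days (14.2% lower). Insig2, which retains SREBPs in the endoplasmic reticulum, was higher by 0.65 at 3 days and 0.66 at 7 days (adjusted p = 0.028 and 0.022). Mbtps2, a protease that frees SREBPs, was higher by 0.57 and 0.69 (adjusted p = 0.0013 and 0.00033). The partner protease Mbtps1 was at -0.12 and -0.19 (adjusted p = 0.046 and 0.0050). Srebf1, which encodes the SREBP that favors fatty acid synthesis, was at -0.60 and -0.86 (adjusted p = 0.0075 and 0.00089). Stard4, a cholesterol carrier, was at -0.54 at 7 days (adjusted p = 0.0072) and -0.22 at 3 days (adjusted p = 0.20), and 7 days minus 3 days was -0.32 (adjusted p = 1.0). With the replicate block, Insig1 was also called lower at 3 days. With each array centered on the median of all its spots, Mbtps1 was not called at 3 days. Without replicate 2 of 3 days, only Mbtps2 of these was called at 3 days.

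Fatty acid synthesis, which shares acetyl-CoA and the SREBP family with cholesterol synthesis, gave another pattern over the arrays. On a list of 8 genes (Acly, Acaca, Fasn, Scd1, Elovl6, Me1, Thrsp and Pnpla3) limma called 0 of 8 at 1 day (0 at an unadjusted p under 0.05) and 0 of 7 after H2-water (1 unadjusted), and the methods' t-test 0 in both. At 3 and 7 days it called 6 of the 7 tested lower (Acly, Acaca, Fasn, Scd1, Elovl6 and Me1), with medians of -0.76 and -0.85. The shares of all probes called lower were 11.1% and 14.2%. Fasn, the fatty acid synthase, was at -1.74 and -1.70 (adjusted p = 0.0092 and 0.0075). On replicate 2 of 3 days, where the cholesterol enzymes had a median of 0.16, the median of the fatty acid genes was -1.08, the lowest of the 12 arrays. Without that array 2 of 7 were called at 3 days, Scd1 and Elovl6, where 4.32% of all probes were called lower. With the replicate block Thrsp was called lower too, 7 of 7 at both times, where 2917 of 19427 and 3504 of 19470 probes were called lower.

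**Figure D4:**
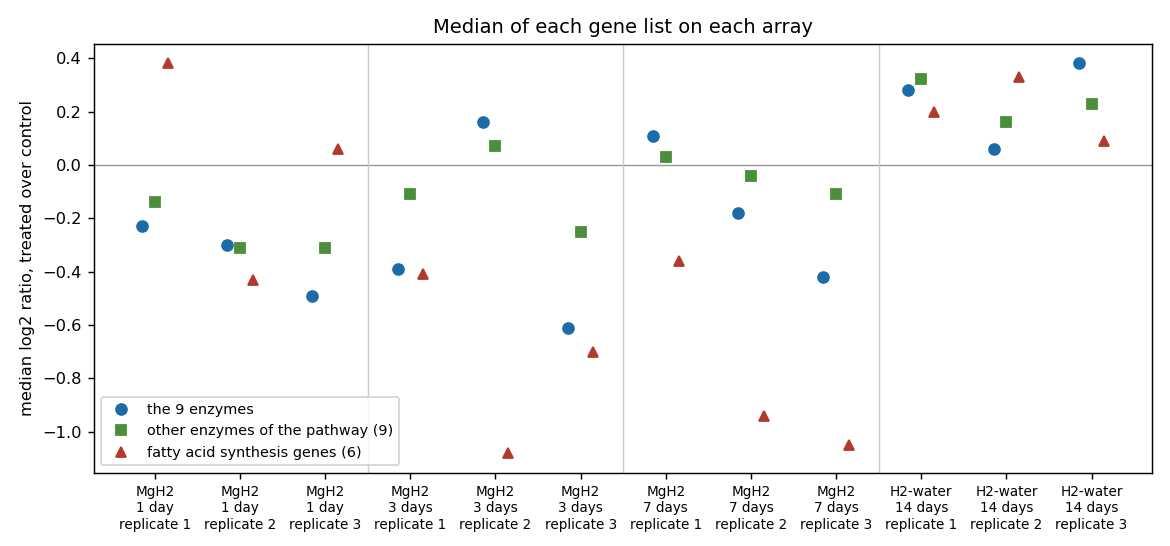
Median log2 ratio of treated over control on each array for the 9 enzymes, for 9 other enzymes of the pathway and for 6 fatty acid synthesis genes, each list taken over genes above background on all 12 arrays. On replicate 2 of 3 days the 9 enzymes have a median of 0.16 and the fatty acid genes one of -1.08.

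Markers of the liver's cell types were read beside these values, in pooled RNA, where fewer cells of a type and less RNA per cell cannot be told apart. Of all probes, 9.38%, 23.4%, 29.5% and 8.83% were called at 1, 3, 7 and 14 days, and the marker calls are to be read beside these shares. All 8 hepatocyte markers were on the array and 7 or 8 were above background in every pool. The log2 ratio of their summed signal was between -0.03 and 0.21. Limma called Alb higher at 3 days (0.25, adjusted p = 0.0029) and Alb, Ttr and Tat at 7 days (0.41, 0.215 and 0.26). After H2-water 4 of the 7 tested were below 0, with a median of -0.12. Over the 12 arrays, r with the mean of the 9 enzymes ran from -0.86 for Apoa1 to 0.52 for Ttr. All 6 Kupffer cell markers were above background in every pool. The ratio of their sum was -0.34 to -0.08 at 1 day, -0.45 to -0.33 at 3 days, -0.45 to -0.38 at 7 days and -0.20 to 0.26 after H2-water. Of the 6, 3 were called lower at 3 and at 7 days (Clec4f, Cd5l and Vsig4). Of the 6 stellate cell markers, 3 were called lower at 3 and at 7 days (Lrat, Col1a1 and Col3a1), with a ratio of the sums between -0.30 and 0.18 over the 12 arrays. Of the 6 leukocyte markers on the array, 4 were tested. Ptprc was called lower at 1 day, S100a8 and S100a9 at 3 days, these 3 at 7 days and Cd3e at 14 days, while Cd3e was called higher at 3 days. Of the 4 red blood cell markers, 3 were tested, Alas2 was called lower at 3, 7 and 14 days, and the ratio of the sums ran from -0.90 to 0.40, with values above 0 on replicate 2 of 3, 7 and 14 days. Of the endothelial markers, Stab2 and Lyve1 were called higher and Clec4g lower at 3 days, Lyve1 higher and Clec4g lower at 7 days and Kdr lower after H2-water. Of the pancreatic acinar markers, Ctrb1 was called lower at 3 days, and limma called 0 of the 2 or 3 cholangiocyte markers tested (0 at an unadjusted p under 0.05). The part of these cells in the ratios of the cholesterol enzymes was not tested.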

How the data were processed

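Liver RNA pools were hybridized to 12 two-color Agilent arrays, treated in Cy5 and control in Cy3, 3 arrays a group. The authors read them with Agilent Feature Extraction (version 10.10.1 in the submitters' processing notes), and the deposited processed intensity is background-subtracted and dye-normalized. The deposited scanner log10 ratio was used only as a check, and the deposited value table (log2) as an alternative. Here log2 of red over green processed signal was fitted with limma 3.58.1 in R 4.3.3, 1 mean per group over all 12 arrays. Probes above background in both dyes on every array compared were tested, two-sided, with Benjamini-Hochberg adjustment over all of them. A gene was represented by its brightest probe. Symbols came from RefSeq records (26761 of 39429 probes). Scripts were tested on simulated data.

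All 9 enzymes are named. Genes of the pathway, sterol-sensing, fatty acid and marker lists are named where called, with the 10 genes most like the mean of the 9. Some genes of these lists are not reported here and were left out of the counts and medians of the lists. The members and lists were chosen with earlier results of these data known. Deviations from the group means correlated at 0.368 to 0.655 between arrays of the same number at 1, 3 and 7 days (9 pairs). Between different numbers the values were -0.433 to 0.053, so these arrays were read as paired by number. The main fit left this pairing out, and only the replicate block among the alternatives took it up. At 14 days the 9 values ran from -0.041 to 0.287, so the numbers were not taken to pair H2-water with MgH2 throughout. Alternatives were other scalings, normexp with loess (offset 50), no filter on dim probes, only the arrays compared, slide or replicate blocks, other probes of a gene, the methods' t-test, and each array left out.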

Additional observations from a re-analysis of the deposited data

Results flagged for a closer look

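Sc5d was singled out because its treated over control ratio differed between the forms of H2 in a direct test. H2-water at 14 days minus MgH2 at 3 days was 0.714 on the log2 scale (limma adjusted p = 0.028). H2-water was higher on 3 of 3 arrays than on any array of 3 days, as for 12.8% of all probes. H2-water minus MgH2 at 7 days was 0.625 (limma adjusted p = 0.024), with no overlap, as for 15.2% of all probes in that direction. Both differences use the same 3 arrays of H2-water, and both calls were lost without any 1 of them. The MgH2 arrays of 3 and 7 days are treated as sharing their controls, so the second difference is not counted as repeated evidence. Slide, software version, duration and control differ between these groups as well and cannot be told apart from the form of H2. The difference was not particular to Sc5d. Of 9 other pathway enzymes tested, Mvd (1.36, limma adjusted p = 0.028) and Nsdhl (0.61, adjusted p = 0.037) were called higher against 3 days. Against 7 days Mvd was called (1.33, adjusted p = 0.018). Of 6 fatty acid synthesis genes tested, 1 was called higher against 3 days and 4 against 7 days. The shares of all probes called higher were 1.23% and 3.46%.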

How the results depend on the processing

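No value of the 9 enzymes that was called changed its sign under an alternative. The number called at 1 day was 1 of 9, where 1846 of 19670 probes were called. Counts of all probes called under each setting are given in brackets. With arrays centered on the median of all spots the number became 0 (823 probes). It was 0 without the filter on dim probes (714 of 39426) and 0 in a fit of only the arrays compared (101). Slide as a random block gave 2 (3046 probes), and the replicate block and slide as a random block 4 (4301). The correlations within slides in these fits were -0.0801 and -0.0765, which makes the error of a group held on 1 slide smaller. The methods' t-test gave 5 before adjustment (2931 probes) and 0 after (66). Leaving out each array gave 0 to 4. At 3 days the number called was 2 of 9 (4542 of 19427 probes). It became 4 with each channel divided by its total (Dhcr7 and Lss added, 4583 probes). It was 1 without the filter (2430 of 39422), 0 with only the arrays compared (292) and 0 in the methods' t-test after adjustment (34). With each array left out it was 1 to 7, the 7 without replicate 2 of 3 days (2063 probes). At 7 days the number called was 2 of 9 (5747 of 19470 probes). It became 0 with only the arrays compared (2176), and 1 and 0 in the methods' t-test before and after adjustment (4994 and 73). It was 0 to 2 when an array was left out. After H2-water the number called was 0 of 9 (1803 of 20429 probes). It became 1 with normexp and loess (2599), 1 with slide as a random block (2809) and 1 with the replicate block (Sc5d, 2804 probes). The replicate block and slide gave 2 (4020), and the methods' t-test before adjustment 4 (4103). The number was 0 to 1 when an array was left out. For H2-water minus MgH2 at 1 day (0 of 9, 14 of 18744 probes) the replicate block and slide gave 1 (589), and leaving out an array 0. At 3 days (1 of 9, 455 of 18673 probes) no filter gave 0 (110 of 39367) and only the arrays compared 0 (22). The replicate block gave 2 (1307), the block and slide 3 (2073), and leaving out an array 0 to 1. At 7 days (1 of 9, 1235 of 18689 probes) centering on all spots gave 3, where 3820 probes were called, 97.2% of them higher. Only the arrays compared gave 0 (425), the replicate block 2 (2490), the block and slide 2 (3445), and leaving out an array 0 to 2. The replicate block changed the number of calls of the 9 enzymes in no other comparison. The 3 differences between times of MgH2 gave 0 under every alternative run, and the median of the 3-day minus 1-day differences ranged from -0.060 to 0.108. Causes of these changes were not tested.

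Over all probes, the 1846, 4542, 5747 and 1803 calls at 1, 3, 7 and 14 days ranged from 101 to 4301, 292 to 6485, 2176 to 8560 and 502 to 4020 over alternatives other than leaving out an array or the methods' t-test, and from 411 to 1754, 2063 to 4726, 3085 to 5934 and 448 to 1825 with an array left out. The methods' t-test called 66, 34, 73 and 52 after adjustment. Differences between groups moved too, from 1332 to between 0 and 3774 for 7 days minus 1 day, from 455 to between 22 and 2073 for H2-water minus 3 days, and from 1235 to between 425 and 6635 for H2-water minus 7 days. With an array left out these 3 counts were 198 to 1433, 8 to 555 and 103 to 1332. The share called higher moved with scaling, from 54.9% to between 31.2% and 64.5% at 1 day, from 52.6% to 38.4% at 3 days, from 51.7% to 15.8% at 7 days and from 55.8% to between 40.3% and 92.3% after H2-water. Centering on all spots moved the median of all probes from 0.006 to -0.103 at 7 days and from -0.01 to 0.162 for H2-water minus 7 days. The slide as a fixed block could be fitted only between times of MgH2. With 3 arrays a group and no dye swap, dye bias and treatment cannot be told apart for a single probe.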
